A study of Homo sapiens with 16 samples.

Results

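The plasminogen activators, the matrix metalloproteinases and their inhibitors were followed through 9 genes, PLAU, PLAT, PLAUR, SERPINB2, SERPINB5, MMP1, MMP7, MMP14 and TIMP1. They were found by gene name in the tables of counts and TPM, where each matched 1 of 58721 genes. TPM are transcripts per 1000000, in which the count of a gene is set against its length. The match used names alone, but the genes were chosen with earlier results of these data known. The tables cover 16 libraries of 3′ RNA sequencing, which reads the ends of transcripts, from 2 human bladder cancer cell lines. RT112 is a luminal papillary line kept in RPMI medium, and SCaBER is a basal/squamous line kept in DMEM, so that line and medium cannot be told apart. Each line was transfected with 10 nM of 1 of 4 small interfering RNAs (siRNAs), of which siFOXA1.1 and siFOXA1.2 target FOXA1 and siControl.1 and siControl.2 are controls. The dose is that of the labels, while the study's methods give 10 ng. Every siRNA has 2 libraries per line, which the labels number as experiment batch replicates 1 and 2. A line thus has 4 siControl and 4 siFOXA1 libraries. No label says whether replicates were separate cultures, so p-values measure the spread between these libraries, which may be technical. Each model is 1 established line and the knock-down is transient.

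Plasminogen is cut into the protease plasmin by urokinase, the product of PLAU, and by tissue plasminogen activator, the product of PLAT. PLAUR encodes the receptor that holds urokinase at the cell surface, and plasmin digests fibrin and activates several matrix metalloproteinases. SERPINB2 encodes a serpin that inhibits both activators, whereas SERPINB5 encodes maspin, an epithelial serpin of the same clade with no protease-inhibiting activity of the classical kind. MMP1 is a secreted collagenase, MMP7 (matrilysin) a small secreted protease of epithelial cells, MMP14 a membrane-anchored protease that cleaves collagen and activates MMP2, and TIMP1 a secreted inhibitor of metalloproteinases. These genes are known from the invading edge of carcinomas. FOXA1 encodes a forkhead transcription factor of luminal urothelium.

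Library totals were 6622473 to 7604581 counts in RT112 and 4528513 to 6914951 in SCaBER. A floor of 3 counts, taken as the limit of detection, was 0.394 to 0.453 CPM (counts per 1000000 counts of the library) in RT112 and 0.434 to 0.662 CPM in SCaBER, and covers counting error only. Adjusted p-values are from the edgeR quasi-likelihood F test with Benjamini-Hochberg adjustment over every gene tested, and called means an adjusted p under 0.05. FOXA1 in RT112 lay between 18.2 and 35 CPM in the siControl libraries, at 1.32 and 3.24 under siFOXA1.1 and at 9.18 and 16 under siFOXA1.2. It fell by 3.44 on the log2 scale under siFOXA1.1 (adjusted p = 2.19e-05), and its change under siFOXA1.2 was -1.1 (adjusted p = 0.205). In SCaBER it held 15 counts or fewer in every library, at 0.499 and 0.623 CPM under siControl.1 and 2.43 and 1.99 under siControl.2. It was at 0 and 0.434 CPM under siFOXA1.1 and at 0 and 0.951 under siFOXA1.2, so the siControl.1 libraries lay within the siFOXA1 range. The SCaBER means were 1.39 CPM in siControl and 0.346 in siFOXA1 (two-sided exact permutation p = 0.114, smallest possible 0.0286). That test takes both siRNAs of a target as replicates. The luminal markers GATA3 and UPK2 were higher in RT112 (means of 440 and 336 CPM against 12.3 and 13.7 in the siControl libraries), the basal markers KRT6A and KRT14 were higher in SCaBER (915 and 544 CPM against 5.25 and 3.15), as were KRT5 and CD44. Of the other basal markers TP63 was at 13.3 CPM in RT112 and 16.1 in SCaBER, and KRT16 was higher by mean in RT112 (56 against 30.4 CPM). The luminal markers KRT20 and UPK3A were at 0 in every siControl library of both lines. Of the fibroblast markers, DCN and COL3A1 were at 0 in the siControl libraries, and the summed level of all 6 was 84.6 to 137 CPM in RT112 siControl and 103 to 146 in RT112 siFOXA1, mostly LUM. In SCaBER the same sum was 10.7 to 38.8 CPM in siControl and 10 to 45.1 in siFOXA1. The summed level of the 6 luminal markers in RT112 was 759 to 1030 CPM in siControl and 382 to 655 in siFOXA1, and the part of this shift in the results was not tested. Endothelial and leukocyte markers summed to at most 11.2 and 7.91 CPM in any library. Mitochondrially encoded genes took 25.74% and 28.24% of the counts in the RT112 siFOXA1.1 libraries and 17.99 to 21.24% in the other RT112 libraries, against 10.26 to 12.12% in SCaBER.

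The stretches of 250 bases before the annotated start sites are printed for the members that passed the test under a siFOXA1 siRNA and have an entry in the RefSeq promoter table (GRCh38.p14). They are given because, under siFOXA1.1, MMP14 rose in both lines, PLAU rose and SERPINB5 fell in RT112 and PLAUR rose in SCaBER, and because genes of this system are textbook targets of AP-1 and PEA3 (ETS) factors. Of the 9 members, 7 have an entry, PLAU with 2 start sites, and MMP1 and PLAT have none. Each is written 5′ to 3′ on the strand of the gene, and capitals mark a match to the AP-1 motif TGANTCA, the forkhead motif TGTTTAC or the PEA3 motif AGGAAG on either strand.
PLAU, first start, chr10:73910360-73910609, plus strand: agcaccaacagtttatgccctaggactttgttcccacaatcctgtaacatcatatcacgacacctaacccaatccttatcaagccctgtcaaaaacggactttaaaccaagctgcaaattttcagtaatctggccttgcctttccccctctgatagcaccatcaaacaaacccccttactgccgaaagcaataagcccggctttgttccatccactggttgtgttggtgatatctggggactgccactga
PLAU, second start, chr10:73910882-73911131, plus strand: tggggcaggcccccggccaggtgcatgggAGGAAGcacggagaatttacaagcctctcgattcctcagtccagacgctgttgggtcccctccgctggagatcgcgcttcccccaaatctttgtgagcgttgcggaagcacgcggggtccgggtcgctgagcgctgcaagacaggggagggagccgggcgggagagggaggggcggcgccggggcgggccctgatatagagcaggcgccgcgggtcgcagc
PLAUR, chr19:43670170-43670419, minus strand: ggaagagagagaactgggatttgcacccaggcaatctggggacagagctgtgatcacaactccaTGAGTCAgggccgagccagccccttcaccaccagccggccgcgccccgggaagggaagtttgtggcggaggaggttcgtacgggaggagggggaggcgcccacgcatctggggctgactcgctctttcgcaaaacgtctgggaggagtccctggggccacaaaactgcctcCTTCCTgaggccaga
SERPINB5, chr18:63476708-63476957, plus strand: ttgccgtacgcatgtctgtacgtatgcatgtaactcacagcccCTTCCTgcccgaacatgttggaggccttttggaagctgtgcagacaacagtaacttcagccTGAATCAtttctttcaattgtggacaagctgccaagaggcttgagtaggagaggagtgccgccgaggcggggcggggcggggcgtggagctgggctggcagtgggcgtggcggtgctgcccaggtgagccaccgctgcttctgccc
MMP14, chr14:22836335-22836584, plus strand: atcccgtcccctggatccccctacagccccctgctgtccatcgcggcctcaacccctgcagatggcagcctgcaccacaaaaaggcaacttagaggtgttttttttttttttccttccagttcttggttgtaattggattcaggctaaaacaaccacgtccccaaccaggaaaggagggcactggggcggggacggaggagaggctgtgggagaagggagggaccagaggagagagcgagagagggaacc

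An AP-1 match lay in the windows of 4 of the 7 members with an entry, starting 186 bases before the start of PLAUR, 146 before that of SERPINB5, 102 before that of SERPINB2 and 67 before that of MMP7. Of all 35116 promoters in the table, searched over the 250 bases before and 50 after the start, 7.71% hold it. A PEA3 match was found in 6 of the 7, in the second PLAU window and in those of PLAUR, SERPINB2, SERPINB5, MMP7 and TIMP1, against 33.6% of all promoters. The genes lie on GRCh38.p14 at chr10:73908832-73917494 (PLAU), chr19:43646095-43670169 (PLAUR), chr18:63476958-63505085 (SERPINB5) and chr14:22836585-22847758 (MMP14). No member window held the forkhead motif, which 3.42% of promoters hold. MMP14 had none of the motifs. No 2 motifs overlapped in a member window. Of the members whose windows are printed, PLAUR and SERPINB5 had an AP-1 match, and PLAU and MMP14 had none. The motifs were searched because genes of this system are textbook targets of these factors, so the shares of members give no support. Neither the presence nor the absence of these letters says what binds there or elsewhere.

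The lines differed in which of these genes they used. Under siControl, SCaBER had its highest mean TPM at MMP1, a collagenase (88.9 ± 55.7, SD, n = 4), and RT112 at the inhibitor TIMP1 (140 ± 12, n = 4). The lead of MMP1 in SCaBER is not settled, since its libraries overlapped those of TIMP1. By CPM the highest mean there was that of PLAU (79.1 ± 92, SD, n = 4). MMP1 and MMP7 had 0 counts in all 8 RT112 libraries. In SCaBER they averaged 69.2 ± 44 and 17.8 ± 5.42 CPM under siControl (SD, n = 4), which makes MMP1 at least 166-fold and MMP7 at least 42.8-fold lower in RT112, with RT112 set at its mean floor of 0.416 CPM. SERPINB2 was the other member that passed the filter on low counts through SCaBER alone, and its level was 33.9-fold lower in RT112 (log2 change -5.08 ± 0.46, SE). The siControl levels of PLAU were 2.13, 3.78, 4.08 and 8.89 CPM in RT112 and 28.5, 29.2, 41.9 and 217 CPM in SCaBER. In bulk libraries fewer expressing cells and less RNA per cell cannot be told apart. The groups did not overlap, and PLAU was 16.6-fold lower in RT112 (log2 -4.05 ± 0.65, adjusted p = 1.41e-04). Without SCaBER siControl.1 replicate 2, its highest library, the log2 difference of PLAU was -2.83 (adjusted p = 9.77e-05), and DESeq2 gave PLAU no adjusted p. PLAT, the other activator, went the opposite way, with 5.92 to 24.1 CPM in RT112 and 0.499 to 4.86 in SCaBER. It was 6.26-fold higher in RT112 (log2 2.65 ± 0.63, adjusted p = 0.00303). Leaving out 1 library at a time gave log2 values from 2.25, without RT112 siControl.2 replicate 1, to 3.26, without SCaBER siControl.2 replicate 2. Limma on log2(TPM + 1) gave 1.39 (adjusted p = 0.0306). The SCaBER libraries of PLAT alone would not have passed the filter, since siControl.1 replicate 1 held 3 counts.

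TIMP1 was 2.45-fold higher in RT112 (adjusted p = 3.26e-04), at 101 to 118 CPM against 23.5 to 57.3. SERPINB5 was 1.49-fold lower in RT112 (adjusted p = 0.031), a call that was lost without 1 of 3 libraries. Without RT112 siControl.1 replicate 1 it was -0.463 on the log2 scale (adjusted p = 0.0998), without replicate 2 of that siRNA -0.475 (0.0928), and without SCaBER siControl.2 replicate 2 -0.553 (0.0702). MMP14 and PLAUR did not pass the test, with log2 differences of -0.48 ± 0.22 and -0.39 ± 0.19 (SE), although limma on log2(TPM + 1) called both (-0.882 and -0.731), and PLAUR also passed without SCaBER siControl.2 replicate 1 (-0.52, adjusted p = 0.0465). On the log2(TPM + 1) scale the median of all genes was itself -0.343. Of all 12309 genes tested between the lines, 43.4% were called. The members called were 7 of 9 (6 with DESeq2), but MMP1, MMP7 and SERPINB2 had to differ once they had passed the filter. PLAT would not have passed it without its RT112 libraries. That count is therefore not read against the background.

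**Figure D1:**
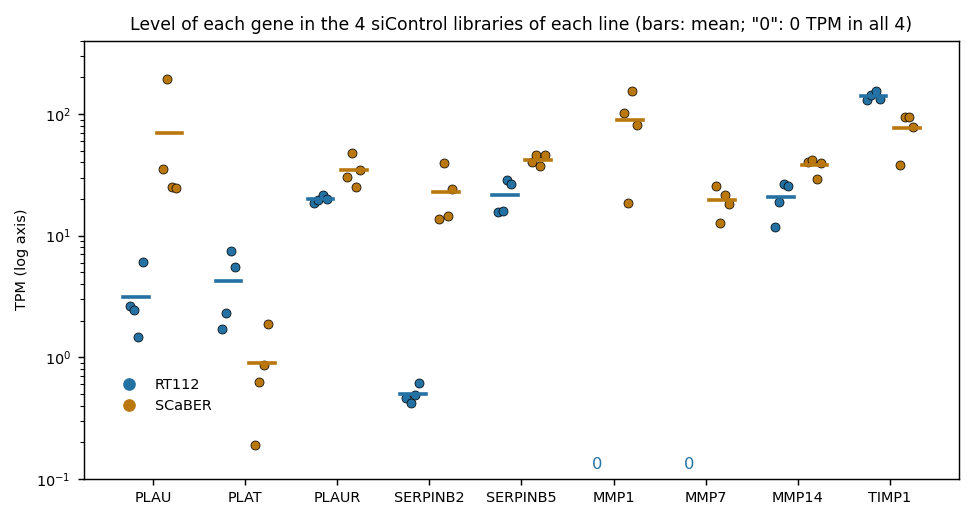
Level in TPM on a log axis of each gene in the 4 siControl libraries of RT112 (blue) and SCaBER (ochre), with bars at the mean and a 0 where all 4 libraries held none. PLAU, SERPINB2, MMP1 and MMP7 stand higher in SCaBER, TIMP1 and PLAT in RT112, and PLAUR, SERPINB5 and MMP14 lie within 1 order of magnitude in both.

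By mean TPM the order in RT112 was TIMP1, SERPINB5 (21.6), MMP14 (20.7), PLAUR (19.8), PLAT (4.23), PLAU (3.14) and SERPINB2 (0.495), with MMP1 and MMP7 at 0. The libraries of SERPINB5, MMP14 and PLAUR overlapped, as did those of PLAT and PLAU, so their places in the order are not settled. The order in SCaBER was MMP1, TIMP1 (76), PLAU (70), SERPINB5 (42.2), MMP14 (37.7), PLAUR (34.5), SERPINB2 (22.9), MMP7 (19.5) and PLAT (0.89). There every neighbouring pair overlapped except MMP7 and PLAT. Reads of a 3′ library do not grow with transcript length, so that dividing by length in TPM understates long transcripts relative to short ones.

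In RT112, siFOXA1.1 raised the activator PLAU and the membrane protease MMP14 and lowered SERPINB5, while under siFOXA1.2 PLAT was the member that passed the test, a call that depended on the control used. PLAU, which makes urokinase, stood at 25.5 and 27.1 CPM in the siFOXA1.1 libraries (replicates 1 and 2) and at 12.2 and 9.83 in the siFOXA1.2 libraries. The siControl.1 libraries held 4.08 and 3.78 CPM and those of siControl.2 2.13 and 8.89. All 4 siFOXA1 libraries were above all 4 controls. The rise under siFOXA1.1 was 6.21-fold (log2 2.63 ± 0.45, SE, adjusted p = 1.77e-04), or 3.3 on the log2 scale without siControl.2 replicate 2, and the change of 1.27 ± 0.46 under siFOXA1.2 did not pass the test (adjusted p = 0.213). Without that library, the highest control, siFOXA1.2 also passed (1.94, adjusted p = 0.044). PLAT showed a different pattern, at 56.7 and 42.2 CPM under siFOXA1.2 and 18 and 13.7 under siFOXA1.1. Its controls were far apart, at 5.92 and 8 CPM under siControl.1 and 24.1 and 18.3 under siControl.2, and the siFOXA1.1 libraries lay between these pairs. Against both controls PLAT rose 4.12-fold under siFOXA1.2 (log2 2.04 ± 0.28, adjusted p = 3.5e-04) and changed by 0.52 ± 0.30 under siFOXA1.1 (adjusted p = 0.198). The difference between the controls was itself called (log2 -1.55 ± 0.36, adjusted p = 0.0265), and was lost without any 1 of the 4 control libraries (-1.79 to -1.32, adjusted p = 0.0709 to 0.239) or without siFOXA1.2 replicate 1 (adjusted p = 0.0534). With siControl.2 alone as the control the siFOXA1.2 change was 1.27 and no longer passed (adjusted p = 0.0809), and with siControl.1 alone it was 2.81. The siFOXA1.1 change of PLAT was 1.29 against siControl.1 alone, which passed (adjusted p = 0.0115), and -0.258 against siControl.2 alone.

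PLAUR, the urokinase receptor, was within 43 and 47 CPM in all 4 RT112 controls. It stood at 45.1 and 75 CPM under siFOXA1.1 and at 28.4 and 30 under siFOXA1.2, so that 1 siFOXA1.1 library lay within the controls and the other above them, while both siFOXA1.2 libraries lay below. Neither change passed the test (0.55 ± 0.22, adjusted p = 0.0668, and -0.61 ± 0.24, adjusted p = 0.274), but the siRNAs differed from each other (1.16 ± 0.27, adjusted p = 0.00346). The siFOXA1.1 change rested on replicate 2, since without replicate 1 it was 0.888 and passed (adjusted p = 0.00738), and without replicate 2 it was 0.101. Without replicate 2 the difference between the siRNAs was 0.709 (adjusted p = 0.0776).

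Of the serpins, SERPINB5 (maspin) was at 16.5 and 15.8 CPM under siFOXA1.1 and at 32.1 and 25.8 under siFOXA1.2. The controls split by siRNA, with 32.2 and 32.8 CPM under siControl.1 and 55.4 and 52.4 under siControl.2. Both siFOXA1.1 libraries were clear of every control, whereas the higher siFOXA1.2 library lay just under the siControl.1 pair. The log2 change of SERPINB5 was -1.24 ± 0.25 under siFOXA1.1 (adjusted p = 8.79e-04), 2.36-fold lower, and its change under siFOXA1.2 was -0.51 ± 0.24 (adjusted p = 0.391). SERPINB2 was under the count filter in RT112, with 4 to 6 counts in the controls, 15 and 21 under siFOXA1.1 and 8 and 5 under siFOXA1.2. Its mean of 1.78 CPM in siFOXA1 against 0.69 in siControl gave a two-sided exact permutation p of 0.0571, where 0.0286 is the smallest that 4 against 4 libraries allow. That test takes both siRNAs of a target as replicates, and a rise of SERPINB2 under siFOXA1.1 alone was not tested.

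MMP14, the membrane-anchored metalloproteinase, was at 112 and 141 CPM under siFOXA1.1, at 68.5 and 75.5 under siFOXA1.2, at 27.7 and 44.2 under siControl.1 and at 58.8 and 56.8 under siControl.2. The siFOXA1.1 libraries were above those of siFOXA1.2, which in turn were above every control. Its rise under siFOXA1.1 was 3.05-fold (log2 1.61 ± 0.19, adjusted p = 3.77e-06), and the difference between the 2 siFOXA1 siRNAs was also called (0.93 ± 0.23, adjusted p = 0.00474), but not without siFOXA1.2 replicate 1 (0.857, adjusted p = 0.0508) or under limma on TPM. The siFOXA1.2 change of 0.68 ± 0.19 missed the threshold (adjusted p = 0.0914), and passed with siControl.1 alone as the control (0.989, adjusted p = 0.025), without siControl.1 replicate 2 (0.866, 0.0438) and without siFOXA1.1 replicate 1 (0.676, 0.0479). TIMP1, the inhibitor, was at 101 to 118 CPM in the controls, 109 and 65.9 under siFOXA1.1 and 109 and 95.7 under siFOXA1.2, with changes of -0.21 ± 0.18 and -0.09 ± 0.18 that did not pass the test. Its value under siFOXA1.1 rested on the low replicate 2: without replicate 1 it was -0.592 (adjusted p = 0.0311), and without replicate 2 it was 0.0795 (adjusted p = 0.796).

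**Figure D2:**
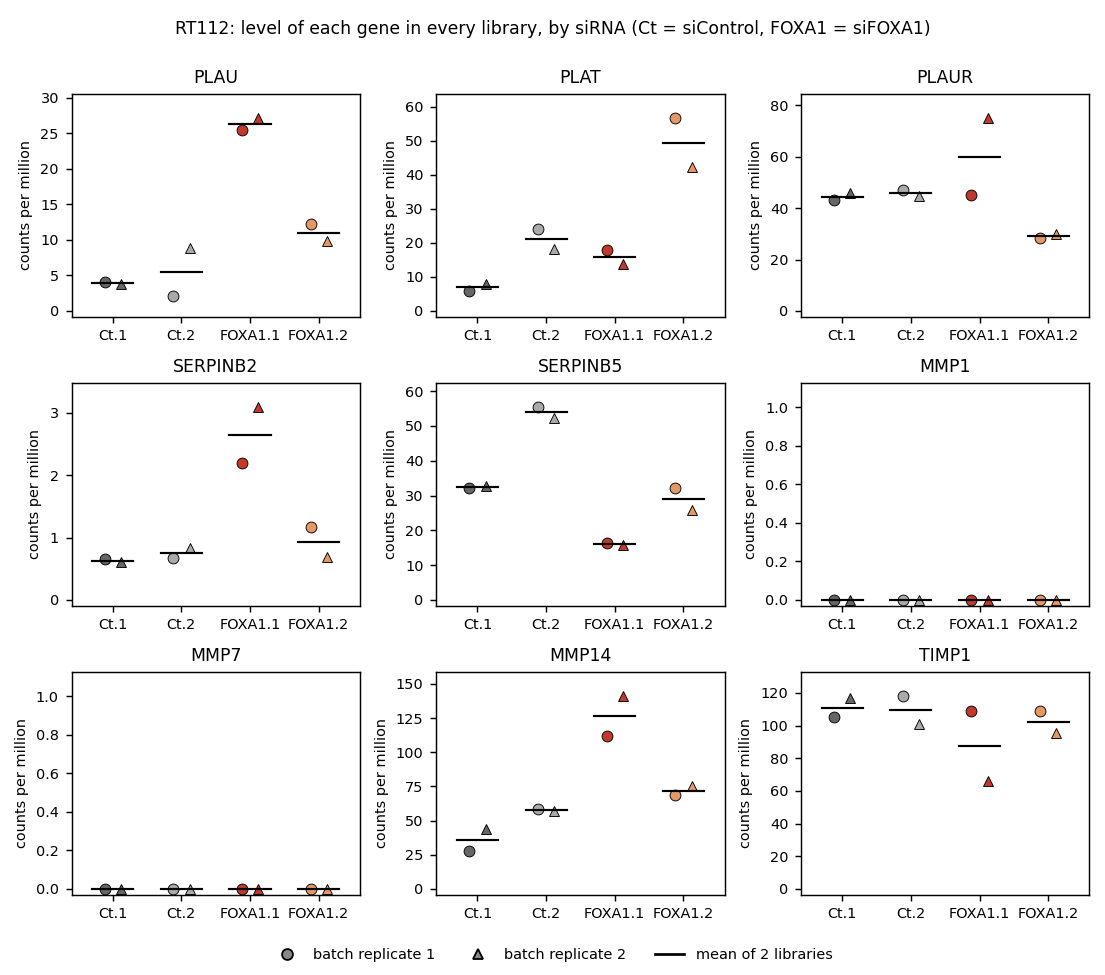
Level in CPM of each gene in every RT112 library by siRNA, with circles for batch replicate 1, triangles for replicate 2 and lines at the mean of 2 libraries. In the panels of PLAU and MMP14 the siFOXA1.1 libraries stand highest and in that of SERPINB5 lowest, PLAT is highest under siFOXA1.2 with its control pairs apart, and MMP1 and MMP7 are at 0 throughout.

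In counts, 3 of the 6 members tested in RT112 were called under siFOXA1.1, against 32.6% of all genes, so the share of members is read against a background in which many genes changed. Under siFOXA1.2 it was 1 of 6, against 2.04% of all genes, and between the controls 1 of 6, the same gene PLAT, against 2.36%. Between siFOXA1.1 and siFOXA1.2, PLAUR, PLAT and MMP14 were called (3 of 6, against 28.1%), and PLAT was the one higher under siFOXA1.2 (-1.53 ± 0.34, adjusted p = 0.00255). The difference in PLAU between the siRNAs was 1.37 ± 0.53 (adjusted p = 0.0644) and that in SERPINB5 -0.72 ± 0.28 (adjusted p = 0.0591). With the siRNAs of a target pooled, 4 against 4 libraries, edgeR called 0 of 6 members, against 0.108% of all genes, with 4 members at an unadjusted p under 0.05. DESeq2 called 2 of them, PLAU and MMP14 (adjusted p = 0.0101 and 0.0222), and limma on log2(TPM + 1) called 0. The pooled log2 changes were 2.09 ± 0.51 for PLAU (adjusted p = 0.23), 1.18 ± 0.30 for MMP14 (0.232), 1.27 ± 0.51 for PLAT (0.356) and -0.87 ± 0.29 for SERPINB5 (0.298). The 4 siFOXA1 and 4 siControl libraries did not overlap in CPM for 3 of the 6 members, PLAU, MMP14 and SERPINB5, against 7.95% of all genes. The median change of the 6 members was 0.53 under siFOXA1.1 (all genes -0.01) and 0.29 under siFOXA1.2 (all genes 0.01). The higher mitochondrial share moved with siFOXA1.1. With mitochondrially encoded genes left out the changes were as large, at 2.63 for PLAU, 1.61 for MMP14 and -1.24 for SERPINB5. That fit removes only the counts of these genes, and whatever else moved with the share was not tested.

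In SCaBER, siFOXA1.1 raised PLAUR and MMP14, and no member passed the test under siFOXA1.2. PLAUR was at 122 and 245 CPM under siFOXA1.1, 78.2 and 85.9 under siFOXA1.2, 54.1 and 80.3 under siControl.1 and 44.3 and 60.3 under siControl.2. Both siFOXA1.1 libraries were above every other library, while 1 siFOXA1.2 library lay within the range of the controls. The rise under siFOXA1.1 was 3.15-fold (log2 1.65 ± 0.25, adjusted p = 9.44e-04). It exceeded that under siFOXA1.2, which was 0.49 ± 0.26 (adjusted p = 0.998), by 1.16 ± 0.31 (adjusted p = 0.0423). That last call was lost under limma on TPM (1.07, adjusted p = 0.232 with a pseudocount of 1) and without any 1 of 5 libraries, among them siFOXA1.1 replicate 2 (0.631, adjusted p = 0.267) and siFOXA1.2 replicates 1 and 2 (1.1, 0.303, and 1.22, 0.227). The others were siControl.2 replicate 1 (1.16, 0.0791) and replicate 2 (1.17, 0.0754).

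MMP14 was at 177 and 101 CPM under siFOXA1.1, 89.5 and 107 under siFOXA1.2, 72.5 and 70.1 under siControl.1 and 51.4 and 68.7 under siControl.2. It was the only member whose 4 siFOXA1 libraries all stood above the 4 controls in SCaBER (1 of 9, against 5.28% of all genes). Its rise under siFOXA1.1 was 2.18-fold (log2 1.12 ± 0.24, adjusted p = 0.00936) and its change under siFOXA1.2 0.61 ± 0.25 (adjusted p = 0.833). The siFOXA1.1 call was lost without siFOXA1.1 replicate 1, the highest library (0.619, adjusted p = 0.124), without siControl.2 replicate 1 (1.03, 0.0628), with siControl.1 alone as the control (1.00, 0.0568) and under limma on log2(TPM + 1) (1.01, 0.0677).

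The other 7 members were not called in SCaBER, and PLAU, SERPINB2 and MMP1 lay far apart in the replicates of siControl.1. PLAU was at 8.14 and 155 CPM under siFOXA1.1, 61.4 and 119 under siFOXA1.2, 41.9 and 217 under siControl.1 and 29.2 and 28.5 under siControl.2. The siFOXA1.1 pair held both the lowest library and the second highest. Its change was 0.42 ± 0.71 under siFOXA1.1 (adjusted p = 0.794), and without siFOXA1.1 replicate 2 it was -2.83 (adjusted p = 0.0174). With the batch replicate in the model it was -0.141 (adjusted p = 0.907). SERPINB2, the inhibitor of both activators, was at 9.47 and 55 CPM under siFOXA1.1 and 15 to 40.8 in the controls, with changes of 0.44 ± 0.51 and 0.47 ± 0.51. Without siFOXA1.1 replicate 2 the siFOXA1.1 change of SERPINB2 was -1.27 (adjusted p = 0.171). MMP7 was at 7.2 and 8.53 CPM under siFOXA1.1, below all other libraries (11.1 to 23.8), a change of -1.15 ± 0.43 that did not pass the test (adjusted p = 0.122). MMP1 was at 52.3 and 25 CPM under siFOXA1.1, 129 and 64.2 under siFOXA1.2 and 13.7 to 120 in the controls (-0.73 ± 0.54 and 0.57 ± 0.51). Without siControl.1 replicate 1 the siFOXA1.1 change of MMP1 was 0.169. SERPINB5 stayed within 43.6 and 76.2 CPM (-0.32 ± 0.23 and 0.16 ± 0.22), and TIMP1 within 23.5 and 77.1 (0.61 ± 0.32 and 0.03 ± 0.32). PLAT was near the floor at 3 to 41 counts, 0.499 to 6.5 CPM, with changes of 0.48 ± 1.08 and 0.93 ± 1.06.

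**Figure D3:**
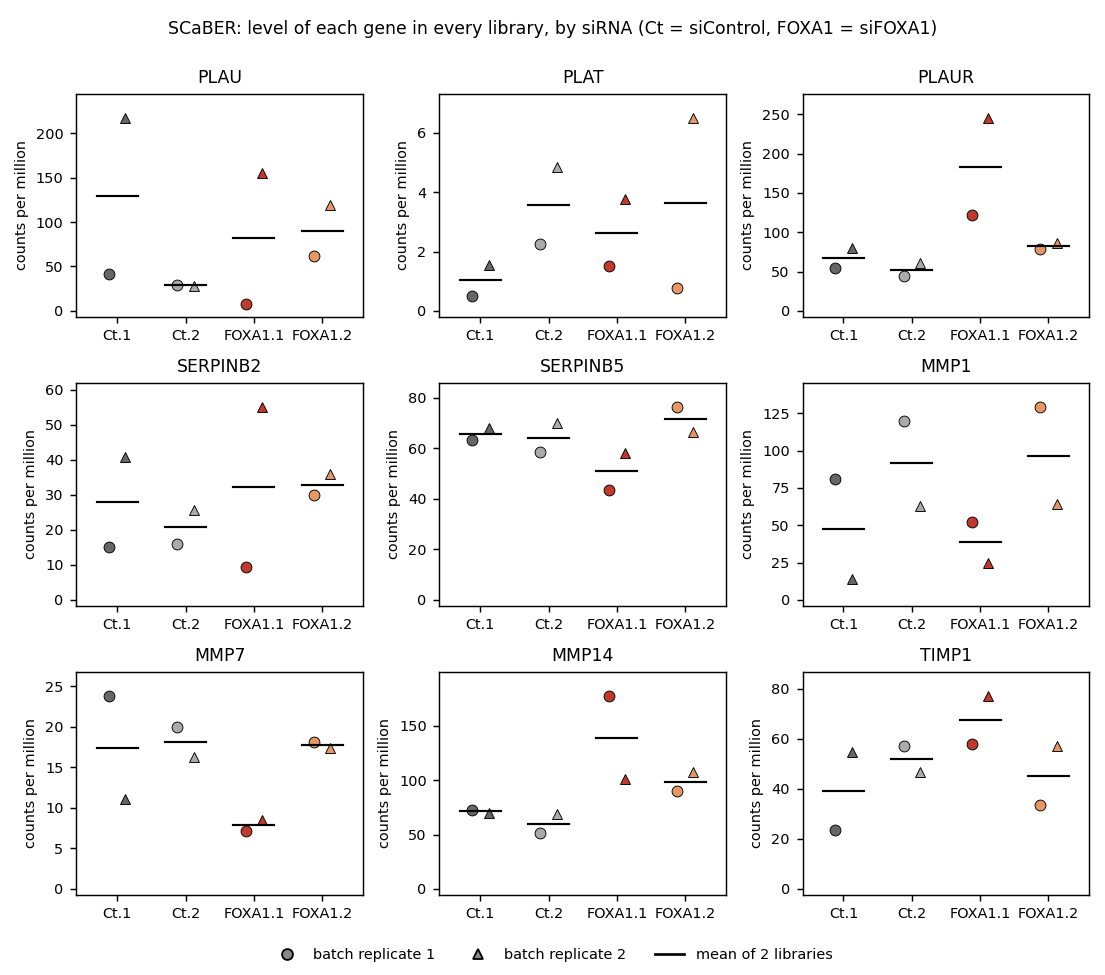
Level in CPM of each gene in every SCaBER library by siRNA, with circles for batch replicate 1, triangles for replicate 2 and lines at the mean of 2 libraries. The means of PLAUR and MMP14 are highest under siFOXA1.1 and that of MMP7 lowest, while in the panels of PLAU, SERPINB2 and MMP1 the circle and the triangle of siControl.1 lie far apart.

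In SCaBER 2 of 9 members were called under siFOXA1.1, against 9.26% of all genes. Under siFOXA1.2 edgeR called 0 of 9, against 0.042% of all genes, with 1 member (MMP14) at an unadjusted p under 0.05, and DESeq2 and limma also called 0. Between siFOXA1.1 and siFOXA1.2 it was 1 of 9 (PLAUR), against 4.85%. Between the controls edgeR called 0 of 9, against 0.0672%, with 1 member (PLAU) at an unadjusted p under 0.05 and 0 called by DESeq2 or limma. In the pooled comparison it called 0 of 9, against 0.0084%, with 2 members (PLAUR and MMP14) at an unadjusted p under 0.05 and 0 called by DESeq2 or limma. The pooled changes were 1.18 ± 0.32 for PLAUR and 0.88 ± 0.24 for MMP14 (adjusted p = 0.417 for both). The median change of the 9 members was 0.44 under siFOXA1.1 and 0.49 under siFOXA1.2 (all genes 0.01 in each).

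**Figure D4:**
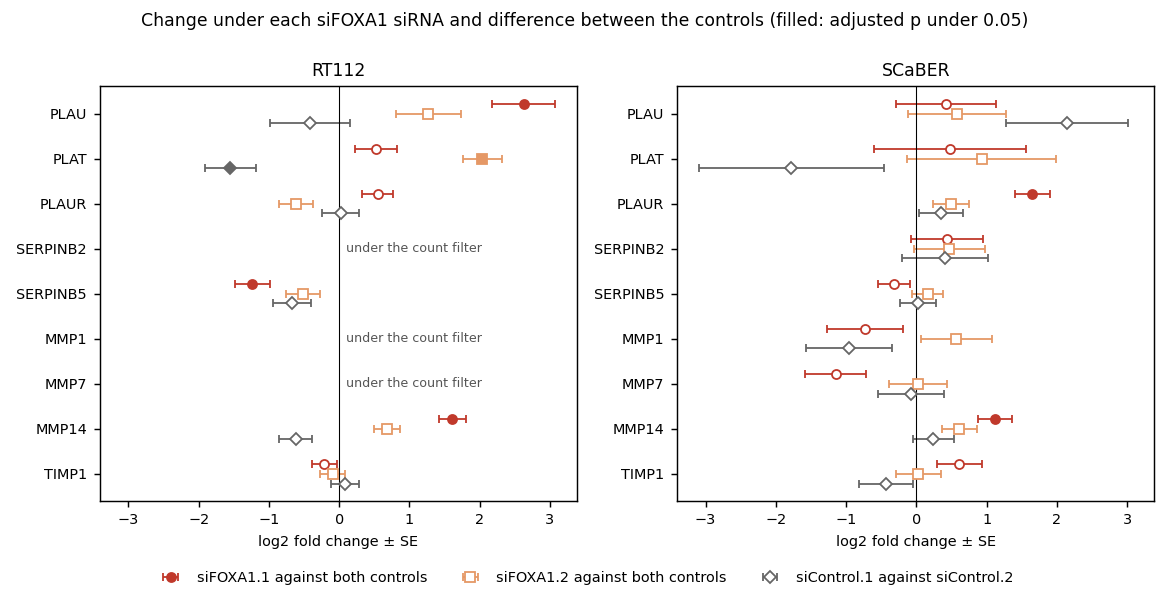
Log2 fold changes with standard errors in RT112 (left) and SCaBER (right) for siFOXA1.1 and siFOXA1.2 against both controls and for siControl.1 against siControl.2, filled where the adjusted p was under 0.05. MMP14 lies to the right of 0 under both siFOXA1 siRNAs in both lines and is filled under siFOXA1.1, PLAU and SERPINB5 are filled in RT112 and PLAUR in SCaBER, and PLAT is filled in RT112 for siFOXA1.2 and for the controls.

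The change under siFOXA1.1 was tested for a difference between the lines with all 16 libraries. Of the members, 7 gave a value, since MMP1 and MMP7 are at 0 in RT112, and edgeR called 0 of them, against 3.14% of all genes, with 4 at an unadjusted p under 0.05 and DESeq2 calling 0. PLAU differed by 2.19 ± 1.02 (adjusted p = 0.293), SERPINB5 by -0.93 ± 0.30 (0.112), PLAUR by -1.12 ± 0.37 (0.115), MMP14 by 0.47 ± 0.34 (0.554) and PLAT by -0.01 ± 0.58 (adjusted p of 1), each as RT112 minus SCaBER. The calls of PLAU and SERPINB5 in RT112 alone and of PLAUR in SCaBER alone are thus not shown to differ between the lines. PLAUR passed with the batch replicate in the model (-1.14, adjusted p = 0.0459) and without SCaBER siFOXA1.1 replicate 1 (-1.52, 0.0203), and limma on log2(TPM + 1) called SERPINB5 (-1.08, adjusted p = 0.0371). For siFOXA1.2 edgeR called 0 of 7, against 0.0438%, with 2 members (PLAUR and SERPINB5) at an unadjusted p under 0.05 and 0 called by DESeq2 or limma.

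In SCaBER several of these genes lay apart by value between the batch replicates, although none passed the test. In the siControl.1, siControl.2, siFOXA1.1 and siFOXA1.2 libraries MMP1 was at 80.7, 120, 52.3 and 129 CPM in replicate 1 and at 13.7, 62.7, 25 and 64.2 in replicate 2, lower in replicate 2 for all 4 siRNAs (-1.39 ± 0.24, adjusted p = 0.0694). SERPINB2, PLAUR and PLAT were higher in replicate 2 for 4 of 4 siRNAs (1.17 ± 0.32, 0.50 ± 0.17 and 1.70 ± 0.92) and PLAU for 3 of 4 (1.77 ± 0.44, adjusted p = 0.291). None of the 9 passed the test, against 0.0084% of all genes, and 0% of genes passed in RT112 (618 of 11986 at an unadjusted p under 0.05). Within SCaBER replicate 1 the change of PLAU under siFOXA1.1 was -2 and within replicate 2 0.97, and that of SERPINB2 was -0.63 and 0.76. Members that were called kept their direction within both replicates: PLAUR in SCaBER changed by 1.37 and 1.81 and MMP14 by 1.58 and 0.54, and in RT112 PLAU changed by 3.09 and 2.33, MMP14 by 1.57 and 1.65 and SERPINB5 by -1.23 and -1.22. PLAT in RT112 under siFOXA1.2 changed by 2.23 and 1.79. These members were called on the same libraries, so the shared direction gives no separate support.

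Across the 16 libraries, with the mean of each line subtracted from log2 CPM, PLAU varied most like MTATP6P1 (Pearson r = 0.927), a nuclear copy of a mitochondrial gene, CDC42SE1 (0.92) and DDB1 (0.916), out of 11203 genes. Reads of such a copy cannot be told apart with certainty from those of the mitochondrial gene. Among the members themselves PLAU and SERPINB2 were the most alike (r = 0.894), and PLAUR and MMP7 the most opposed (r = -0.694). PLAUR was most like CHMP5 (0.946) and ADAM8 (0.931), MMP7 most like PRSS21 (0.957), MMP1 most like NRG1 (0.937), SERPINB5 most like RAI14 (0.924), MMP14 most like CDS1 (0.925), TIMP1 most like PQLC2 (0.883) and PLAT most like TRUB2 (0.83). For MMP1 and MMP7 the 8 RT112 libraries are all at 0, so that likeness rests on the 8 SCaBER libraries. The libraries share siRNAs and batches in pairs, and these values only describe which profiles run alongside.

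Around the members, 101 other genes of the same systems were followed in 7 lists. Of the 50 tested in RT112, 18 were higher and 11 lower under siFOXA1.1, and 3 were higher and 0 lower under siFOXA1.2, where 32.6% and 2.04% of all genes were called. Over all 11986 genes tested under siFOXA1.1, 1870 were higher and 2033 lower, and the counts of single RT112 lists below stand against that background. With library totals as the only scaling the RT112 split under siFOXA1.1 was 17 higher and 14 lower, and with limma on log2(TPM + 1) 10 and 12, where the median of all genes was -0.145 and -0.308. In SCaBER, 8 of 63 were higher and 1 lower under siFOXA1.1, against 9.26% of all genes called (532 higher and 570 lower of 11902), and 0 were called under siFOXA1.2, against 0.042%. The list of membrane-anchored and related serine proteases and their inhibitors had 5 of 9 tested genes higher and 1 lower in RT112 under siFOXA1.1. PRSS8 (prostasin) rose from 72.6 ± 1.26 and 75.9 ± 0.792 CPM in the controls to 267 ± 30 (SD, n = 2, log2 1.98 ± 0.13, adjusted p = 2.89e-09). PRSS22 rose by 1.80 ± 0.19 (adjusted p = 1.15e-06) and SPINT1, an inhibitor of such proteases, by 1.55 ± 0.17 (adjusted p = 1.25e-06). In the list of metalloproteinase inhibitors and activators 3 of 6 were higher and 1 lower. TIMP2, which binds MMP14 and takes part in activating MMP2, rose to 325 ± 23.8 CPM from 99.7 ± 17.5 and 175 ± 19.4 (1.44 ± 0.13, adjusted p = 2.59e-07), with the controls differing by -0.75 (adjusted p = 0.0192). Of the cathepsins and cystatins 5 of 14 were higher and 4 lower. CTSC, a lysosomal protease that activates others, was higher under both siRNAs (0.89 ± 0.17, adjusted p = 5.36e-04, and 1.66 ± 0.16, adjusted p = 1.03e-05). CSTA, a cystatin of squamous epithelia, changed by -1.75 ± 0.28 under siFOXA1.1 (adjusted p = 1.13e-04). The other genes of the plasminogen system had 1 of 7 higher and 3 lower. LRP1, an endocytic receptor that clears protease complexes from the cell surface, was lower by this test (-1.81 ± 0.50, adjusted p = 0.00958), a call lost under limma on TPM. CTSS rose by 1.85 ± 0.56 (adjusted p = 0.0167), from 5.89 and 3.54 to 15.1 CPM. That call was lost with siControl.1 alone as the control, without siControl.1 replicate 1 (1.65) and without siFOXA1.1 replicate 1 (1.55). It was also lost under limma on log2(TPM + 0.5) (1.34, adjusted p = 0.0608).

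In SCaBER under siFOXA1.1, the ADAM and ADAMTS list had 2 of 10 genes higher, where 9.26% of all genes were called in either direction. ADAMTS1, which cuts proteoglycans, rose by 2.37 ± 0.29 (adjusted p = 1.98e-04) and ADAM8 by 1.93 ± 0.22 (adjusted p = 1.18e-04), to 628 ± 243 CPM from 195 ± 62.3 and 143 ± 15.5. PRSS8 rose here too (1.70 ± 0.24, adjusted p = 5.34e-04). PRSS21 was the 1 gene lower (-1.53 ± 0.40, adjusted p = 0.0244). Its call was lost without siControl.1 replicate 1 (-1.09), either siControl.2 library (-1.60 and -1.46) or siFOXA1.1 replicate 2 (-1.47). The PRSS21 call was also lost with siControl.2 alone as the control (-1.5, adjusted p = 0.0528) and under limma on log2(TPM + 1) (-1.42, adjusted p = 0.066). The cathepsin and cystatin list had 4 of 13 higher, with CTSS at 2.04 ± 0.24 (adjusted p = 1.49e-04), CTSC at 1.06 ± 0.23 (adjusted p = 0.0102) and CST6 at 0.98 ± 0.21 (adjusted p = 0.00919). The CTSC call was lost without siFOXA1.1 replicate 1 (0.671) or siControl.2 replicate 2 (0.963). It was also lost with siControl.1 alone as the control (0.984, adjusted p = 0.0513) and under limma on log2(TPM + 1) (0.957, adjusted p = 0.0829). CST6 differed between the controls by more than that (1.66 ± 0.26, adjusted p = 0.0257), against siControl.1 alone it changed by 0.147, and without siControl.2 replicate 1 its call was lost (0.825, adjusted p = 0.0598).

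**Figure D5:**
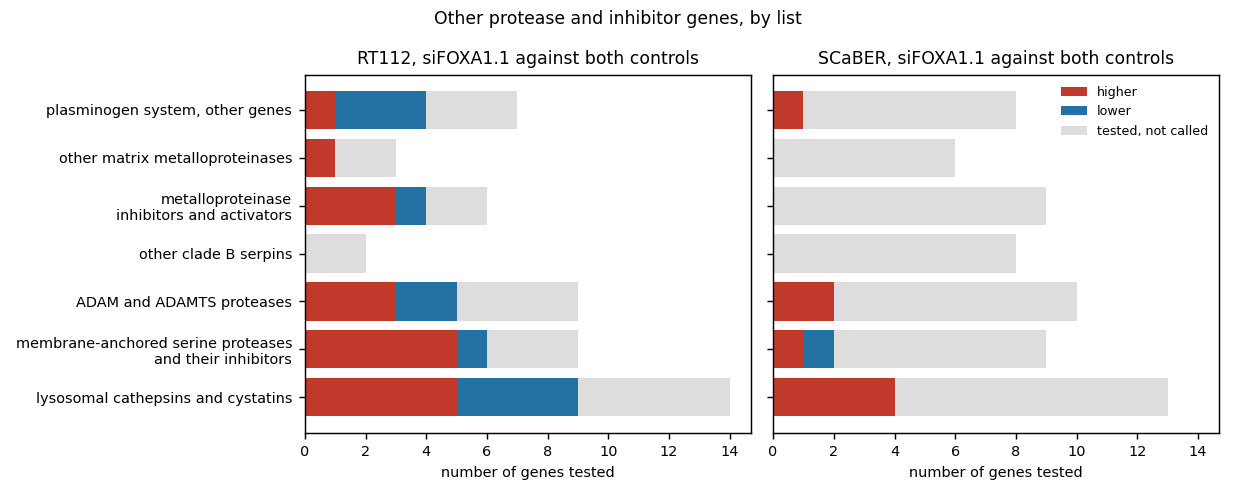
Number of genes of each of the 7 other lists that were higher (red), lower (blue) or tested and not called (grey) under siFOXA1.1 against both controls in RT112 (left) and SCaBER (right). Most lists of RT112 hold genes of both directions, and in SCaBER the cathepsin and cystatin list has the most genes called, 4 of 13.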

How the data were processed

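The 16 libraries were made from total RNA by 3′ sequencing. Per the labels and the study's methods, the authors trimmed reads with TrimGalore 0.6.2 (minimum quality 20, minimum length 10) and aligned and counted them with STAR 2.6.1a and GENCODE 29 on hg38; the methods name hg19 instead. The deposited values used are raw counts per gene and TPM, which the authors derived by dividing by gene length. Members and lists were chosen with earlier results of these data known. Library totals, which set the precision, were 4528513 to 7604581 counts.

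CPM were counts over the library total. Counts were tested with edgeR 4.0.16 (R 4.3.3, TMM, filterByExpr on groups of 4, 1 mean per siRNA). Members under the filter, and FOXA1 in SCaBER, had a two-sided exact permutation test that pools the siRNAs of a target. Standard errors were the log2 change over the square root of F. Alternatives used DESeq2 1.42.0, limma 3.58.1 on log2(TPM + 1) or log2(TPM + 0.5) for genes with a mean TPM over 1, other scalings, no filter, single controls, leaving out each library, and the batch replicate as a block. The labels call the replicate number an experiment batch, which may pair samples across siRNAs. Deviations of same-numbered libraries correlated at only -0.018 to 0.014 in RT112 and 0.019 to 0.2 in SCaBER. Between siRNAs of 1 target and in pooled and interaction comparisons, alternatives were computed only for members called there or against both controls. Of the 101 other genes, the 8 with the largest called changes per line and a mean of at least 20 counts over the 8 libraries are named, except 1 gene that is not reported here. Likeness was Pearson's r of log2 CPM (prior count 2), with the 3 nearest genes kept. The code was tested on simulated data.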

Additional observations from a re-analysis of the deposited data

Results flagged for a closer look

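PLAU in SCaBER siControl.1 replicate 2, at 217 CPM, lay far above the other 3 siControl libraries of that line (28.5 to 41.9 CPM), with a gap to the nearest of them of 0.929 of the group's whole range. Of 32 groups of 4 libraries examined over the members, this was the 1 group that passed Dixon's criterion, which chance alone passes in about 1 in 20 groups. Without this library the SCaBER change of PLAU under siFOXA1.1 was 1.22 (adjusted p = 0.353).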

How the results depend on the processing

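PLAU, MMP14 and SERPINB5 under siFOXA1.1 in RT112 and PLAUR under siFOXA1.1 in SCaBER were called in 18 of 18 alternatives each. Between the lines TIMP1 was called in 16 of 16 and PLAU in 15 of 15, and PLAT between the RT112 siFOXA1 siRNAs in 16 of 16. SERPINB2 and PLAT were also called between the lines in 16 of 16 each. SERPINB2 passed the filter through SCaBER alone, and PLAT would not have passed it without its RT112 libraries. These calls of SERPINB2 and PLAT between the lines therefore give no support. The member calls that were lost under an alternative are given here or with the results, and the cause was not tested. Values near the floor, such as PLAT in SCaBER, are limited by depth, and with 1 library left in an arm its spread was assumed to be that of the other siRNAs. In the siRNA, control, pooled and interaction comparisons other members are given only as counts.

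Without a filter beyond 1 count, members called were 2 under siFOXA1.2 in RT112, 2 in the RT112 pooled comparison, 2 in the SCaBER pooled comparison, 2 between the siFOXA1 siRNAs in SCaBER, 1 between the SCaBER controls and 2 for the siFOXA1.1 difference between lines. DESeq2 called 2 in the RT112 pooled comparison. Limma called 0 between the RT112 controls, 1 under siFOXA1.1 in SCaBER, 0 between the siFOXA1 siRNAs in SCaBER and 1 for the difference between lines with either pseudocount, and 0 under siFOXA1.2 in RT112 with 0.5. PLAU under siFOXA1.1 in SCaBER was -0.503 and -0.533 with pseudocounts of 1 and 0.5. With siControl.1 alone 2 members were called under siFOXA1.2 in RT112 and 1 under siFOXA1.1 in SCaBER, where PLAU was at -0.646 for siFOXA1.1 and at -0.488 for siFOXA1.2. With siControl.2 alone 0 were called under siFOXA1.2 in RT112, PLAT under siFOXA1.1 was -0.258 in RT112 and -0.404 in SCaBER, and under siFOXA1.2 in SCaBER MMP7 was -0.0163 and TIMP1 -0.19. Without mitochondrially encoded genes the difference between lines in PLAT was 0.0232.

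With the replicate block, 2 members were called between the siFOXA1 siRNAs in SCaBER and 1 for the siFOXA1.1 difference between lines, where PLAT was 0.0358. In SCaBER the block gave -0.141 for PLAU under siFOXA1.1 and -0.00106 for TIMP1 under siFOXA1.2.

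Over fits that each omitted 1 library, 3 to 5 members were called under siFOXA1.1 and 1 to 2 under siFOXA1.2 in RT112, 0 to 1 between its controls, 1 to 3 under siFOXA1.1 and 0 to 1 between the siFOXA1 siRNAs in SCaBER, and 0 to 2 for the difference between lines. Changes that turned direction ranged, in RT112, from -0.592 to 0.0795 for TIMP1 under siFOXA1.1 and from -1.1 to 0.929 for PLAU between controls. In SCaBER under siFOXA1.1 they ranged from -0.26 to 0.981 for PLAT, -2.83 to 1.34 for PLAU, -1.4 to 0.169 for MMP1 and -1.27 to 1.2 for SERPINB2. Under siFOXA1.2 they ranged from -1.26 to 1.77 for PLAT, -0.212 to 0.358 for MMP7, -0.0268 to 1.48 for MMP1 and -0.397 to 0.383 for TIMP1. The difference between lines in PLAT ranged from -0.531 to 0.761.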
